A study of Rattus norvegicus with 30 samples.

Results

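The cholesterol synthesis genes described here were chosen by symbol: Hmgcs1, Idi1, Fdps, Fdft1, Sqle, Cyp51, Dhcr7 and Insig1. Of these 8 genes, 7 were found under their symbols among the 17134 genes of the table, and Fdps was not analysed here. RNA-seq of brain tissue compared 10 WT rats, 10 HIP rats and 10 AKO rats, all Sprague Dawley males on a normal diet, and the annotation names the tissue as frontal cortex. WT rats carry only their own amylin, a hormone released with insulin. HIP rats express human amylin, which forms amyloid, in pancreatic β-cells and develop type-2 diabetes, while AKO rats lack the amylin gene. Per the study's methods, WT and HIP rats were 15 to 16 months old. The age of the AKO rats is not given in the sources used here, and 4 of them have KAH and 6 have AKO in their names.

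Cells make cholesterol from acetyl-CoA through mevalonate, squalene and lanosterol. The genes of this route are switched on together by SREBP2, a transcription factor held in the endoplasmic reticulum by INSIG proteins while sterols are plentiful and released when sterols fall. The adult brain makes nearly all of its own cholesterol, because lipoproteins do not cross the blood-brain barrier, and much of it lies in the myelin of oligodendrocytes. In the order of the route, Hmgcs1 makes HMG-CoA, Idi1 interconverts the first isoprenoid building blocks, Fdft1 makes squalene, Sqle oxidizes squalene, Cyp51 demethylates lanosterol and Dhcr7 carries out a last reduction to cholesterol. Insig1 encodes an INSIG protein and is itself a target of SREBP2. Their Ensembl identifiers, in that order, are ENSRNOG00000016552, ENSRNOG00000016690, ENSRNOG00000021314, ENSRNOG00000009550, ENSRNOG00000007234, ENSRNOG00000020776 and ENSRNOG00000006859.

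The deposited values are counts per gene normalized by the authors with DESeq2, and they sum to 15.4 to 17.98 M per rat. Reads on genes, estimated from the smallest step between low values, ranged over 12.9 to 21.2 M for WT, over 13.7 to 16.7 M for HIP and over 12.9 to 23.6 M for AKO animals. The medians were 19.1 M for WT, 15.7 M for HIP and 16.1 M for AKO animals, and the lowest WT value was that of rat 10RT43. The library of WT rat 10RT43 went against its label. Its cerebellum marker Gabra6 had 17979 normalized counts, against 1.12 to 16.5 in the 28 rats other than 10RT43 and HIP rat 12RT23. Its neocortex marker Tbr1 had 16.7 normalized counts against 1433 to 3190 in these 28 rats, and Fezf2 was listed at 0. HIP rat 12RT23 had the next highest Gabra6, 1564 normalized counts, with Tbr1 at 2379. The mean log2(normalized count + 1) of the cerebellum list (5 of 5 genes found) was 13.1 in 10RT43, 10.0 in 12RT23 and at most 4.83 in the others. The summed counts of this list ranged from 153.9 to 51913 in WT rats, 196 to 6036 in HIP rats and 161 to 893 in AKO rats. HIP rat 10RT46 stood apart for other lists, with a mean log2 value of 10.1 for the pineal gland list, at most 3.02 in the other 29 rats, and of 9.08 for the choroid plexus list. The next highest choroid plexus mean was 7.56, in AKO rat 7AKO19. The main results below are given for all rats and without 10RT43 and 12RT23, a choice made after the data were seen. In bulk tissue, fewer cells of a type and less RNA per cell cannot be told apart.

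All 7 genes were detected in every rat, and their levels overlapped between the 3 genotypes. Hmgcs1, which makes HMG-CoA, had 1559 to 5334 normalized counts in WT rats (median 4928), 3325 to 5413 in HIP rats (median 4854) and 2168 to 5302 in AKO rats (median 4501). The lowest WT value was that of 10RT43, and the other 9 WT rats began at 3947. Idi1 had 325 to 1248 normalized counts in WT rats (median 477), 328 to 621 in HIP rats (median 469) and 274 to 619 in AKO rats (median 412). Here 10RT43 was the highest of all 30 rats, with 548 the next highest WT value, and 12RT23 was the highest HIP rat.

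Of the genes between the isoprenoids and cholesterol, Fdft1, the squalene synthase, had 1196 to 1983 normalized counts in WT rats (median 1814), 1630 to 2098 in HIP rats (median 1905) and 1050 to 2297 in AKO rats (median 1621). Sqle, the squalene epoxidase, had 560 to 1225 normalized counts in WT rats (median 1074), 1131 to 1443 in HIP rats (median 1182) and 597 to 1334 in AKO rats (median 1073). All 10 HIP rats had more Sqle than the WT median, and 10RT43 held the lowest WT value, below the next at 1012. Cyp51, the lanosterol demethylase, had 1592 to 2806 normalized counts in WT rats (median 2524), 2222 to 2915 in HIP rats (median 2566) and 1958 to 2781 in AKO rats (median 2495). Dhcr7, which reduces 7-dehydrocholesterol, had 178 to 504.2 normalized counts in WT rats (median 445), 348 to 479 in HIP rats (median 453) and 321 to 635 in AKO rats (median 443). Again 10RT43 was lowest for both genes, and the highest Dhcr7 value was that of AKO rat 6KAH98.

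Insig1, the sterol-sensing inhibitor, had 1426 to 2082 normalized counts in WT rats (median 1833), 1600 to 2371 in HIP rats (median 1972) and 1334 to 2163 in AKO rats (median 1678). Its lowest WT value was again that of 10RT43, though the next, 1522, was close. In all, 10RT43 was the lowest WT rat for 6 of the 7 genes and the highest for Idi1. AKO rat 4KAH27 was the lowest AKO rat for 4 of the 7 genes.

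**Figure D1:**
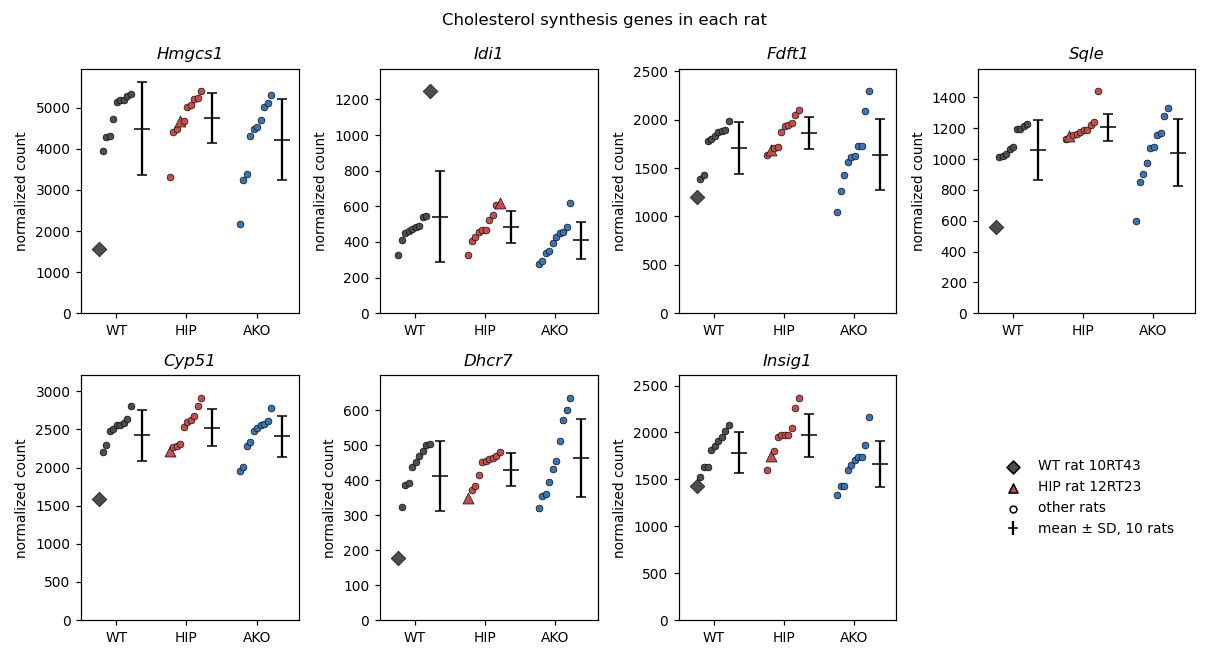
Normalized count of each of the 7 genes (y axis, from 0) in WT, HIP and AKO rats (x axis, 10 rats per genotype). Each point is a rat, the diamond is WT rat 10RT43, the triangle is HIP rat 12RT23, and bars show the mean ± SD. The diamond lies lowest in its group for 6 genes and highest for Idi1, at 1248 normalized counts.

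The genotype with the least spread between rats depended on the rats left out. With all 30 rats, the coefficient of variation (SD as a percent of the mean) was lowest in HIP rats for 7 of the 7 genes, as it was for 51.3% of the 17085 genes compared. For Sqle it was 18.4% in WT, 7.45% in HIP and 21.0% in AKO rats. Without 10RT43 and 12RT23 it was lowest in HIP rats for 3 of the 7 genes and in WT rats for 4, Hmgcs1, Idi1, Cyp51 and Insig1. Hmgcs1 then stood at 10.8% in WT, 13.5% in HIP and 23.5% in AKO rats, and Sqle at 7.95% in WT and 7.65% in HIP rats. In these 28 rats it was highest in AKO rats for 7 of the 7 genes, as it was for 66.2% of 17079 genes, against 3 of the 7 and 50.6% with all rats. The rats left out were a WT and a HIP rat, chosen after the data were seen, so the AKO group stayed whole. These are descriptions with no test.

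HIP vs. WT asks whether human amylin made in the pancreas is accompanied by other levels of these genes in the brain. None of the 7 genes passed, and 6 were higher in HIP rats on average. The differences below are in log2(normalized count + 1), tested two-sided by limma with Benjamini-Hochberg adjustment over all genes tested. Of 17085 tested genes, 439 (2.57%) had an unadjusted p under 0.05, and 0 (0.0%) had an adjusted p under 0.05. The median difference of the 7 genes was 0.14, against 0.0018 over all tested genes. Sqle stood at 1206 ± 89.8 normalized counts with HIP and 1060 ± 195 with WT (mean ± SD, 10 rats each), a difference of 0.21 (standard error 0.11, p = 0.0589, adjusted p = 0.999). Insig1 stood at 1971 ± 228 with HIP and 1784 ± 220 with WT, a difference of 0.14 (standard error 0.078, p = 0.077, adjusted p = 0.999). For the other 5 genes unadjusted p ranged from 0.123 for Fdft1 to 0.609 for Idi1. The widest 95% interval was that of Idi1, from 0.73-fold to 1.20-fold.

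Leaving out 10RT43 and 12RT23 narrowed every interval in HIP vs. WT. The median difference of the 7 genes became 0.024, against -0.0053 over all tested genes. Sqle, the highest of the differences with all rats, became 0.12 (standard error 0.056, p = 0.0453, adjusted p = 1.0) and was the gene of 7 that passed unadjusted, where 372 of 17051 tested genes (2.18%) did. Insig1 became 0.13 (p = 0.0978). Hmgcs1 moved from 0.14 to -0.02 and Idi1 from -0.09 to 0.01, with unadjusted p of 0.794 and 0.907. Their 95% intervals then ran from -0.20 to 0.16 for Hmgcs1 and from -0.21 to 0.24 for Idi1. A fit with estimated reads as a covariate gave 7 of 7 genes an unadjusted p under 0.05, and 0 of 7 once 10RT43 was dropped from that fit. In the first of these fits 4227 genes of all passed unadjusted, and in the second 257. Median estimated reads were 19.1 M in WT and 15.7 M in HIP rats, so this covariate is partly confounded with genotype.

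AKO vs. WT compares rats with and without amylin. None of the 7 genes passed, where 1594 of 17058 tested genes (9.34%) had an unadjusted p under 0.05 and 17 (0.0997%) an adjusted p under 0.05 by limma. The median difference of the 7 genes was -0.06, against 0.0014 over all tested genes, with 2 of the 7 higher in AKO rats. Without 10RT43 it was -0.13, against -0.0073 over all tested genes, with 1 of the 7 higher, and again 0 of the 7 passed, where 1746 of 17025 tested genes (10.3%) did. Idi1 stood at 409 ± 102 normalized counts with AKO and 543 ± 256 with WT (mean ± SD, 10 rats each), a difference of -0.35 (standard error 0.18, p = 0.0684, adjusted p = 0.554). Without 10RT43, the highest WT rat for Idi1, this difference was -0.21 (p = 0.128). Dhcr7 stood at 464 ± 111 with AKO and 412 ± 100 with WT, a difference of 0.19 (p = 0.286). Without 10RT43, its lowest WT rat, it was 0.06 (p = 0.65). Cyp51 differed by 0.00025 (95% interval -0.19 to 0.19) with all rats and by -0.07 (-0.21 to 0.08) without 10RT43.

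HIP vs. AKO sets human amylin in excess against no amylin, and shares its rats with both comparisons above. Insig1 and Sqle were higher in HIP rats at an unadjusted p under 0.05, 2 of the 7 genes, where 2179 of 17092 tested genes (12.7%) passed. After limma's Benjamini-Hochberg adjustment 0 of the 7 genes passed, and 29 (0.17%) of all tested genes did. The median difference of the 7 genes was 0.21, against 0.0047 over all tested genes, and 6 of 7 were higher in HIP rats. Insig1 stood at 1971 ± 228 normalized counts with HIP and 1666 ± 242 with AKO (mean ± SD, 10 rats each), a difference of 0.25 (standard error 0.084, p = 0.00742, adjusted p = 0.237). Of the HIP rats, 9 of 10 were above the AKO median of Insig1, and the groups overlapped. Sqle stood at 1206 ± 89.8 with HIP and 1041 ± 219 with AKO, a difference of 0.24 (standard error 0.11, p = 0.0351, adjusted p = 0.355), and 10 of 10 HIP rats were above the AKO median.

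Insig1 stayed under 0.05 unadjusted when any of these 20 rats was left out, with p at most 0.0171, and was 0.27 (p = 0.0058) without 12RT23. Sqle was 0.25 (p = 0.0387) without 12RT23, so 2 of the 7 genes passed there too, where 1831 of 17080 tested genes (10.7%) did. Sqle passed the threshold no longer without HIP rat 10RT37 (p = 0.067) or without AKO rat 4KAH27 (p = 0.0585), 6AKO35 (p = 0.0652), 7AKO30 (p = 0.0595) or 7AKO42 (p = 0.0503). Against the 4 KAH-named AKO rats alone, the difference was 0.19 for Insig1 (limma, p = 0.0678) and 0.35 for Sqle (p = 0.0227). Against the 6 AKO-named rats alone, it was 0.28 for Insig1 (limma, p = 0.0108) and 0.17 for Sqle (p = 0.0724). Fdft1 (0.21, p = 0.0596), Idi1 (0.26, p = 0.0642) and Hmgcs1 (0.20, p = 0.141) did not pass. Without 12RT23 these were 0.23 (p = 0.0538), 0.22 (p = 0.12) and 0.20 (p = 0.159). Without 10RT46, Idi1 was 0.29 (p = 0.0498) and Hmgcs1 0.26 (p = 0.0568). The smallest differences were 0.07 for Cyp51 (p = 0.341) and -0.08 for Dhcr7 (p = 0.492), the latter with a 95% interval from 0.80-fold to 1.12-fold. Without 12RT23 they were 0.09 (p = 0.236) and -0.05 (p = 0.685).

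**Figure D2:**
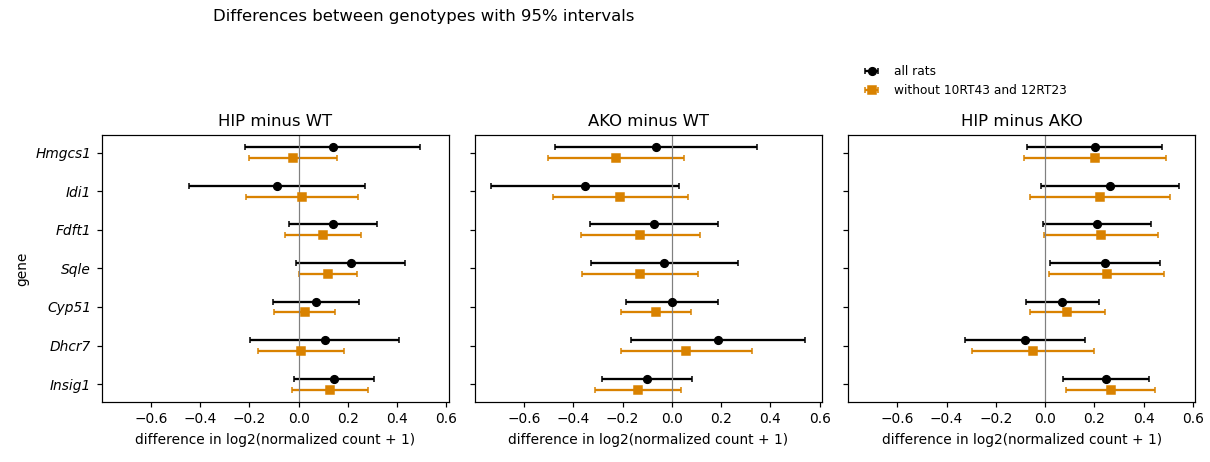
Difference of each gene between genotypes (x axis, log2(normalized count + 1)) with its 95% interval from limma, for HIP minus WT, AKO minus WT and HIP minus AKO. Black circles are all rats and orange squares leave out 10RT43 and 12RT23. With all rats, 0 lies outside the interval for Insig1 and Sqle in HIP minus AKO.

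None of the 7 genes passed adjustment between genotypes in the main fits. Over all 30 rats, 6 of the 7 genes rose and fell together from rat to rat. Each rat's log2 value was taken as its deviation from the mean of its genotype, and the 21 pairs of genes were compared over 30 rats by Pearson's r and Spearman's rho. Both had two-sided permutation p-values (100000 resamples within genotype), adjusted over the 21 pairs. All 15 pairs among Hmgcs1, Fdft1, Sqle, Cyp51, Dhcr7 and Insig1 had a positive r with an adjusted permutation p under 0.05. Their r ranged from 0.46 to 0.88 (median 0.70). The share of passing pairs over all genes was not computed. Of the 21 pairs, 15 passed in WT rats alone, 10RT43 included, 2 in HIP rats alone and 5 in AKO rats alone. Over all 30 rats, Hmgcs1 and Sqle had the highest r, 0.88 (permutation p = 1e-05, the smallest these resamples can give, adjusted p = 7e-05, rho = 0.75). Without the 2 rats farthest from the median of Hmgcs1, 10RT43 and 4KAH27, r was 0.61. Each r without the 2 farthest rats kept the genotype means of all 30 rats. Fdft1 and Dhcr7 had r = 0.86 (permutation p = 1e-05, adjusted p = 7e-05, rho = 0.90) and 0.89 without their 2 farthest rats. Hmgcs1 and Fdft1 had r = 0.63 (adjusted permutation p = 0.00292, rho = 0.58) but 0.29 without 10RT43 and 4KAH27. Hmgcs1 and Dhcr7 had r = 0.70 (adjusted permutation p = 0.00756, rho = 0.61) but 0.35 without these rats. Both r values depended on the rats included. Without 10RT43 alone they were 0.53 (adjusted permutation p = 0.0275) and 0.395 (adjusted permutation p = 0.101) in the same order. In AKO rats alone they were 0.56 and 0.39, and 0.85 and 0.83 without 4KAH27 and 6KAH98. Which rats set these values was not tested.

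The low correlation of Idi1 with the other 6 genes rested on 10RT43. Over 30 rats its 6 pairs had r from -0.20 to 0.11 (median -0.13), and none had an adjusted permutation p under 0.05. By Spearman's rho the 6 pairs were positive, from 0.15 to 0.42, with 1 passing. Without 10RT43 the median r of these pairs was 0.49 and all 6 passed. Without 12RT23 as well, over 28 rats, they ranged from 0.55 to 0.71 (median 0.59) and all 6 passed. Idi1 and Hmgcs1 then had r = 0.71 (adjusted permutation p = 0.00063, rho = 0.72). The 15 pairs without Idi1 had a median r of 0.59 in these 28 rats and 11 of them passed. The 4 that did not were Hmgcs1 with Dhcr7 (r = 0.40, adjusted permutation p = 0.101) and Insig1 with Hmgcs1 (0.32, 0.144), Fdft1 (0.41, 0.0622) and Sqle (0.34, 0.144). Within genotypes, the median r of the pairs without Idi1 was 0.89 in WT, 0.61 in HIP and 0.52 in AKO rats. That of the pairs with Idi1 was -0.68 in WT rats, 10RT43 included, 0.057 in HIP rats, 12RT23 included, and 0.64 in AKO rats. With 12RT23 included, the HIP rats alone thus did not show the positive relation of Idi1. This rat was the highest HIP rat for Idi1 and the lowest for Cyp51 and Dhcr7. The r in HIP rats without 12RT23 alone was not computed.

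**Figure D3:**
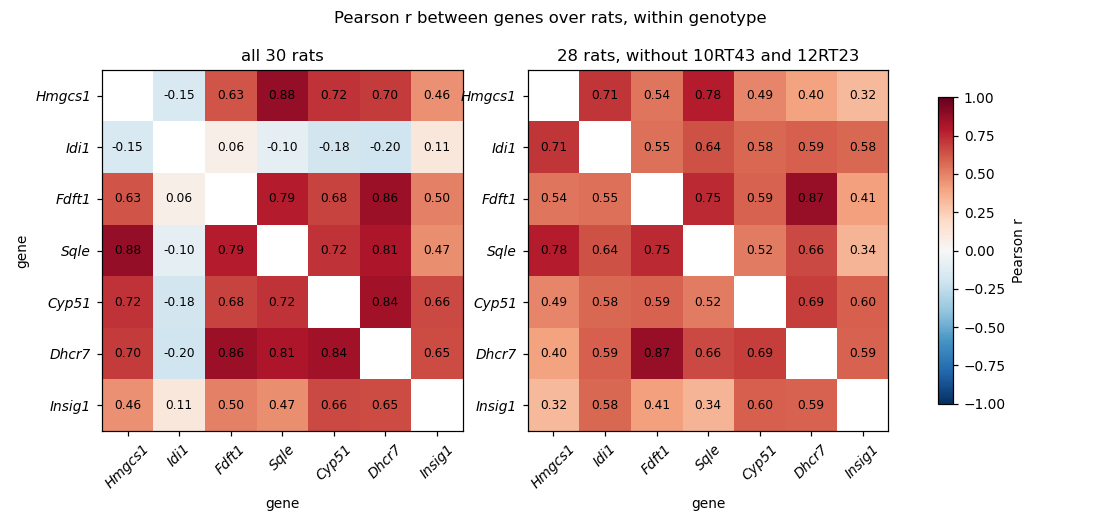
Pearson r between the 7 genes (rows and columns) over rats, as deviations from the genotype mean, with 30 rats at left and 28 rats at right. Red is positive and blue negative. The Idi1 row runs from -0.20 to 0.11 at left and from 0.55 to 0.71 at right.

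Ordered by the mean of the 7 genes, each scaled to an SD of 1, the rats ran from -2.04 in 10RT43 to 1.35 in AKO rat 7AKO28. Next to the lowest were AKO rats 4KAH27 (-1.37), 6AKO35 (-1.23) and 7AKO30 (-0.86), so AKO rats lay near both ends. Over the 30 rats this mean was compared with 15 marker lists and the estimated reads, 16 measures adjusted together. The cerebellum list went down as the genes went up, with r = -0.60 (permutation p = 0.00096, adjusted p = 0.0154, rho = -0.50) and -0.51 without the 2 farthest rats. Over the 28 rats it was r = -0.57 (adjusted permutation p = 0.032) with rho = -0.34 (adjusted p = 0.412). The oligodendrocyte list (8 of 8 genes found, none at 0) went up with the genes, with r = 0.47 (permutation p = 0.00421, adjusted p = 0.0337, rho = 0.53) and 0.54 without the 2 farthest rats. Over the 28 rats it was r = 0.52 (adjusted permutation p = 0.0413) with rho = 0.45 (adjusted p = 0.158). Its summed counts ranged from 69635 to 125136 in WT, 48773 to 182377 in HIP and 72384 to 136566 in AKO rats, and its part in the shared variation was not tested. None of the other 14 measures passed for r or for rho. Estimated reads had r = 0.25 (adjusted permutation p = 0.394, rho = 0.027) over 30 rats and -0.0024 over 28.

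**Figure D4:**
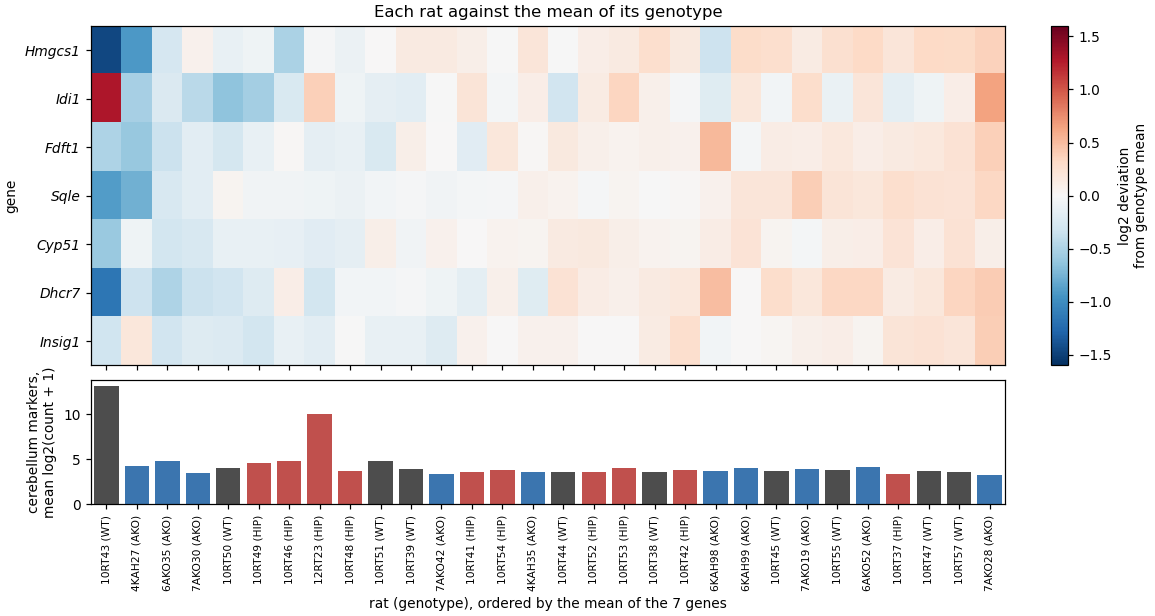
Upper panel, log2 deviation of each of the 7 genes (rows) from the mean of its genotype in each of 30 rats (columns, ordered by the mean of the 7 genes). Lower panel, mean log2(normalized count + 1) of 5 cerebellum markers in the same rats, colored by genotype. At far left, 10RT43 is low for 6 genes and high for Idi1, with the tallest bar (13.1).

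Among the 17127 genes outside the 7, those whose levels most resembled the mean of the 7 over rats were led by another enzyme of the same route. Likeness was Pearson's r over the 30 rats, as deviations from the genotype mean, and is a description with no test. Acat2, which makes acetoacetyl-CoA at the start of the route, ranked first (r = 0.86). Others among the first 15 were Fbxl4, ENSRNOG00000057814, Sprn, Reep5, Septin8, Lyrm7, Asrgl1, Ntng2, ENSRNOG00000059428, Kcna6, Pnma2, Pfkp and ENSRNOG00000067714, with r from 0.76 to 0.83. Over the 28 rats Acat2 was still first (r = 0.81), and 8 of the 15 genes were again among the first 15. Mvk, the mevalonate kinase, joined them at rank 12 (r = 0.70).

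By steps of the pathway, likeness was highest for the mevalonate enzymes. All 5 outside the 7 genes, among them Acat2, Mvd and Mvk, had r of at least 0.5 over 30 rats, and 4 of 5 over 28 rats. Of all genes outside the 7, 8.25% and 2.58% had such an r. The median r of these 5 enzymes was 0.70 over 30 rats and 0.63 over 28, against 0.0058 and -0.0031 for all genes. Of the 8 other sterol enzymes found, 2 had an r of at least 0.5 over 30 rats, among them Msmo1 (0.71), and 4 did over 28 rats. Lss, the lanosterol synthase, had r = 0.052 over 30 rats and 0.12 over 28, and Sc5d had -0.049 and -0.023.

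By list median, the regulators were less like the 7 genes than the mevalonate enzymes were. Of the 6 SREBP control genes, 2 had an r of at least 0.5 over 30 rats and 0 did over 28. Srebf2, which encodes SREBP2, had r = 0.63 over 30 rats and 0.497 over 28, and its escort protein gene Scap had 0.62 and 0.35. Insig2, the other INSIG gene, had r = -0.37 over both 30 and 28 rats. The lowest r of the SREBP control list was that of Mbtps1, -0.66 over 30 rats and -0.46 over 28. The lists of SREBP control, uptake, efflux and isoprenoid genes had medians of 0.021, 0.0092, -0.031 and 0.032 over 30 rats, and of -0.061, 0.025, 0.0097 and 0.14 over 28. The 9 fatty acid genes had a median of 0.45 over 30 rats and 0.24 over 28, with Fads1 (0.69, 0.64) and Acaca (0.67, 0.53) the highest 2 over 30 rats. Cyp46a1, the neuronal enzyme that turns cholesterol into a form able to leave the brain, had r = 0.63 over 30 rats and 0.41 over 28.

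**Figure D5:**
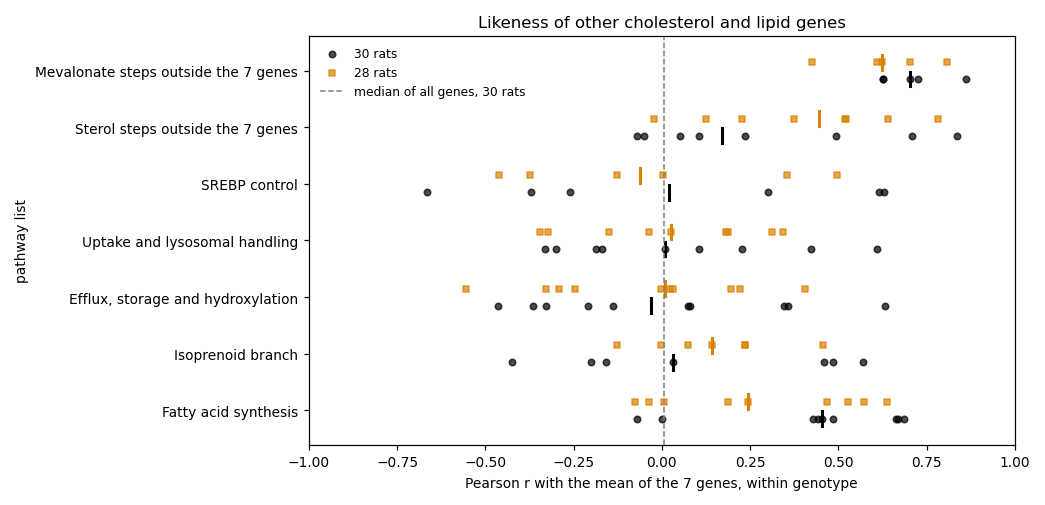
Pearson r of other cholesterol and lipid genes with the mean of the 7 genes (x axis, deviations from the genotype mean), by pathway list (y axis). Points are genes, over 30 rats (black circles) and 28 rats (orange squares), short bars are list medians, and the dashed line is the median of all genes. The mevalonate enzymes lie farthest right, with a median of 0.70 over 30 rats.

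Because the genes moved together, the 200 bases before their start sites were read from RefSeq (rat build GRCr8, whereas the counts used rn7). Sequences were found for 5 of the 7 genes, Hmgcs1, Idi1, Cyp51, Dhcr7 and Insig1. Fdft1 and Sqle had no entry. Textbook promoter motifs were searched on both strands, a choice made after several spellings had been viewed on these sequences. The motif CCAAT, which binds NF-Y, a partner of SREBP2, was in 3 of the 5 windows and in 29.2% of 33469 promoters. The motif CCGCCC, the GC box, was in 3 of the 5 (Hmgcs1, Cyp51 and Dhcr7) and in 28.6% of promoters, and its 2 matches in Dhcr7 overlap. The sterol element core TCACNCCA was in 0 of 5 and in 2.6% of promoters, which says only that these letters are not in these windows. The 3 windows with CCAAT are shown 5′ to 3′ on the strand of the gene, with each match in capitals, as ATTGG where it reads on the opposite strand. They are at chr2:53382104-53382303 (plus strand) for Hmgcs1, chr17:66547525-66547724 (minus strand) for Idi1 and chr4:8057770-8057969 (minus strand) for Insig1.
Hmgcs1: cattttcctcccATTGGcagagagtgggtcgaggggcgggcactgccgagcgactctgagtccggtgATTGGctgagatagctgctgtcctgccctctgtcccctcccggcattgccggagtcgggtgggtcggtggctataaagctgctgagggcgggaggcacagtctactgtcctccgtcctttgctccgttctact
Idi1: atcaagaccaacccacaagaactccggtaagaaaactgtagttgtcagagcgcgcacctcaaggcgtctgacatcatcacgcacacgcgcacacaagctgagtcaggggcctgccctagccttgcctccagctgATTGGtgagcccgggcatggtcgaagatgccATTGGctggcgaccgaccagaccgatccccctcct
Insig1: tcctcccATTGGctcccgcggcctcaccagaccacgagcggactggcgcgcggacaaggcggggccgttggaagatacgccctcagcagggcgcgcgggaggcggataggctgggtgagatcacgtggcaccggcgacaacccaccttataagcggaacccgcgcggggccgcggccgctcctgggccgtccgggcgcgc
Hmgcs1 and Idi1 each hold 2 matches and Insig1 holds 1. In Idi1 they end 62 and 31 bases before the start, and in Hmgcs1 184 and 129. A match is a description of the letters and not of a bound site.

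Of 58 other genes of cholesterol and lipid handling listed, 54 were found. In HIP vs. WT, 0 of the 54 had an unadjusted p under 0.05 by limma, as against 2.57% of all genes. In AKO vs. WT, 11 of 54 passed unadjusted, 4 higher and 7 lower in AKO rats, and none passed adjustment. Of all tested genes, 9.34% passed unadjusted. The higher genes were Npc2, a lysosomal cholesterol carrier (1893 ± 350 vs. 1442 ± 152.1 normalized counts, mean ± SD, difference 0.37, p = 0.00137, adjusted p = 0.192), Lss (0.33), Apoe, which encodes the main apolipoprotein of the brain (0.30), and Srebf1 (0.28). The lower genes were Mbtps2, a protease that releases SREBP (-0.44), Stard4, a sterol carrier (-0.40), Tm7sf2 (-0.39), Insig2 (-0.35), Sc5d (-0.34), Erg28 (-0.29) and Ggps1 (-0.22). Of the 8 sterol enzymes outside the 7 genes, 1 was thus higher and 3 were lower. Without 10RT43, 9 of the 54 passed, as against 10.3% of all tested genes, and Erg28 and Ggps1 no longer did.

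In HIP vs. AKO, 10 of the 54 genes passed unadjusted, 6 higher and 4 lower in HIP rats, and none passed adjustment by limma. Of all tested genes, 12.7% passed unadjusted. Ggps1, which makes geranylgeranyl diphosphate at the branch away from sterols, stood at 303 ± 36.9 normalized counts with HIP and 236 ± 22.6 with AKO (mean ± SD, 10 rats each), a difference of 0.35 (p = 0.000325, adjusted p = 0.0906). The other higher genes were Stard4 (0.46), Mbtps2 (0.45), Sc5d (0.40), Vldlr, a lipoprotein receptor (0.23), and Acaca, the first enzyme of fatty acid synthesis (0.17). The lower genes were Apoe (-0.40), Npc2 (-0.40), Lss (-0.37) and Srebf1 (-0.21). Without 12RT23, 8 passed, as against 10.7% of all tested genes, and Acaca and Srebf1 no longer did. Among the regulators and efflux genes that did not pass in this comparison, Srebf2 differed by 0.07 (p = 0.493), Insig2 by 0.25 (p = 0.116) and Cyp46a1 by -0.13 (p = 0.156).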

How the data were processed

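RNA of 30 male rats, labelled as frontal cortex, was measured by RNA-seq. Per the labels and the study's methods, the authors processed the reads in Partek Flow 10.0.22.0228 with rat genome rn7 (STAR 2.7.8a and Bowtie2 are named), counted them on genes of Ensembl 105 and normalized the counts with DESeq2. The study's text names hippocampus and cerebral cortex, the labels frontal cortex. The deposited signal values are these normalized counts, with 1 column per rat. They are not whole: 80.1% to 83.5% of each rat's values below 100 were whole multiples of a step (tolerance 0.01), so whole reads were not recovered and no count test was run. The step gave estimated reads, 12.9 to 23.6 M per rat. Transcript lengths were not used, so levels are not compared between genes.

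Values were analyzed as log2(normalized count + 1), which understates changes of low genes, keeping genes whose mean in the rats compared was 1 or more. Groups were tested in pairs, two-sided, with limma 3.58.1 under R 4.3.3 (moderated by eBayes with an intensity trend), with Benjamini-Hochberg adjustment over all genes tested and thresholds of 0.05 for unadjusted and adjusted p. Correlations used deviations from genotype means and 100000 permutations within genotype (Python 3.11.15, numpy 2.4.6, scipy 1.17.1, pandas 2.3.3). The design named 28 pairs for 8 genes; with Fdps not analysed there were 21. The group fits and the correlations were tested on simulated data. The study's text calls WT rats littermates of HIP rats, but the sources used here give no litter or batch for each rat. Neither was modelled, and the p-values treat these rats as independent.

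The 7 genes, 7 other pathway lists and 15 marker lists were chosen with earlier results of these data known. Named genes were all 7, the 15 genes most like their mean, pathway genes with an unadjusted p under 0.05 or among the 3 highest r of their list, and Srebf2, Insig2 and Cyp46a1, except some items that are not reported here. Mvk, Lss, Sc5d and Mbtps1 were given an r after it was seen. Alternatives were pseudocounts of 0.1 and 5, no filter or a mean minimum of 10, all 30 rats together, robust eBayes, sample-quality weights, quantile and median-ratio normalization, covariates, subsets of rats, permutation tests, Spearman's rho and each rat left out. Leaving out 10RT43 alone, or with 12RT23, or together with a reads covariate was chosen after seeing the data.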

Additional observations from a re-analysis of the deposited data

Results flagged for a closer look

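Within each genotype, the highest and the lowest rat were set against the rest by Dixon's gap-to-range ratio at the 95% level. Of 21 groups (7 genes in 3 genotypes), 6 held such a rat, where chance gives about 1 in 20 groups if they are independent. These groups share rats and are not independent, and the share over all genes was not computed. WT rat 10RT43 was lowest for Hmgcs1 (1559 normalized counts, with the other WT rats from 3947 to 5334), for Sqle (560, others 1012 to 1225) and for Cyp51 (1592, others 2197 to 2806). The same rat was highest for Idi1 (1248, others 325 to 548). Its cerebellum and neocortex markers, given above, also stood apart, and their part in these values was not tested. HIP rat 10RT46, which had the highest pineal gland and choroid plexus lists (10.1 and 9.08), was lowest for Hmgcs1 (3325, others 4415 to 5413). The part of those lists in this value was not tested. HIP rat 10RT37 was highest for Sqle (1443, others 1131 to 1239).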

How the results depend on the processing

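No paired analysis was possible because the replicate numbers only follow the order of the samples. Counts with an unadjusted p under 0.05 come first, with the reported values of 0 of 7 genes in HIP vs. WT, 0 in AKO vs. WT and 2 in HIP vs. AKO. In HIP vs. WT the count of the 7 genes was 1 with sample-quality weights, 4 with the first residual principal component as a covariate, 7 with estimated reads, 1 without 10RT43, 10RT46, 10RT48 and 7AKO19, and 1 without 10RT43 and 12RT23. After adjustment it was 1 with the principal component and 2 with estimated reads. In AKO vs. WT it was 1 with all 30 rats in one fit, with the principal component and with estimated reads. In HIP vs. AKO it was 1 with all 30 rats in one fit, with weights and with quantile normalization. Each other alternative stayed at the reported count or within 1.5 times it. Of the 54 other pathway genes, HIP vs. WT gave 2 with weights, 7 with the principal component, 1 with an oligodendrocyte covariate, 21 with estimated reads and 3 without the 4 rats. AKO vs. WT gave 17 with weights, 6 with KAH-named rats alone and 2 with estimated reads without 10RT43, and HIP vs. AKO gave 16 with weights.

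Over all genes the unadjusted count of HIP vs. WT (439) was 885 with weights, 1568 with the principal component, 4227 with estimated reads, 840 without the 4 rats and 257 with estimated reads without 10RT43. That of AKO vs. WT (1594) was 3930, 2735 and 1047 with weights, the principal component and estimated reads without 10RT43, and that of HIP vs. AKO (2179) was 4289 and 3510 with weights and the principal component. Adjusted counts ranged from 0 to 1080 in HIP vs. WT, from 0 to 857 in AKO vs. WT and from 3 to 1143 in HIP vs. AKO. The cause was not tested.

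Directions turned as follows, in log2 units. In HIP vs. WT, Hmgcs1 was -0.0228 without 10RT43 and 12RT23 and -0.0162 with estimated reads without 10RT43. Idi1 was 0.0216 with weights, 0.0934 without the 4 rats, 0.0129 without 10RT43 and 12RT23 and 0.129 with estimated reads without 10RT43. Dhcr7 was -0.0237 with weights and -0.0314 without the 4 rats. In AKO vs. WT, Hmgcs1 was 0.00961 with the oligodendrocyte covariate, 0.0938 with estimated reads and 0.0631 with AKO-named rats alone. Sqle was 0.00344 with weights, 0.0288 with the oligodendrocyte covariate, 0.0518 with estimated reads and 0.039 with AKO-named rats. Cyp51, reported at 0.00025, was -0.0203 with weights, -0.00683 with library number as a covariate, -0.0615 without the 4 rats, -0.0652 without 10RT43, -0.0846 with estimated reads without it and -0.0517 with AKO-named rats. In HIP vs. AKO, Cyp51 was -0.00848 with KAH-named rats. Sqle in HIP vs. WT (0.21, limma p = 0.0589) had p = 0.0154 in a permutation test of 100000 resamples.

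Leaving out each rat in turn gave 0 to 2 of the 7 genes in HIP vs. WT, 0 to 1 in AKO vs. WT and 1 to 4 in HIP vs. AKO. Over all tested genes the counts were 309 to 779, 1311 to 1974 and 1657 to 3005 in the same order. The count of 4 came without AKO rat 7AKO28, where 1927 of 17097 tested genes passed. Of the other pathway genes, 0 to 1 passed in HIP vs. WT. In HIP vs. WT, Sqle passed without WT rat 10RT43, 10RT45, 10RT47, 10RT55 or 10RT57, and Insig1 without WT rat 10RT47 or 10RT57 or HIP rat 10RT49. In AKO vs. WT, Idi1 passed without WT rat 10RT50 or AKO rat 7AKO28. In HIP vs. AKO, Idi1 passed without HIP rat 10RT46 or 10RT49 or AKO rat 7AKO19 or 7AKO28, and Fdft1 without HIP rat 10RT41 or AKO rat 6KAH98 or 7AKO28. Values that turned ranged in HIP vs. WT from -0.0244 to 0.193 for Hmgcs1, -0.16 to 0.055 for Idi1 and -0.0229 to 0.143 for Dhcr7, each turning without 10RT43. In AKO vs. WT they ranged from -0.226 to 0.038 for Hmgcs1 and -0.13 to 0.055 for Sqle, both turning without 4KAH27, and from -0.0652 to 0.0325 for Cyp51. The highest count over all genes in HIP vs. WT, 779, came without HIP rat 10RT46.

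For correlations, 15 of 21 pairs passed with all rats, 2 with HIP rats alone and 5 with AKO rats alone. The median r of the 6 Idi1 pairs (-0.13) was 0.22 by Spearman's rho, -0.68 in WT, 0.057 in HIP and 0.64 in AKO rats, 0.50 without the 4 rats, 0.49 without 10RT43 and 0.59 without 10RT43 and 12RT23. That of the other 15 (0.70) was 0.89 in WT and 0.52 in AKO rats. Of the 15 most similar genes, 5 were shared by Spearman's rho, 0 in WT, 1 in HIP and 2 in AKO rats, 6 without the 4 rats and 8 without 10RT43 and 12RT23.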
